A study of Homo sapiens with 6 samples.

Results

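TRIM28 and 9 other genes of the KRAB silencing machinery were followed in A549 cells that carry dCas9-KRAB. The 10 genes are TRIM28, SETDB1, ATF7IP, CBX1, CBX3, CBX5, ATRX, MORC2, DNMT1 and EHMT2. They were taken by gene symbol from the 26485 symbols of the count files, and all 10 were present. A549 is a human lung carcinoma line, and the study asked which NKX2-1-bound sites of lung genes are needed for their expression. RNA-seq was performed in 6 libraries. Of these, 3 came from cells given sgRNA #2, whose site lies in the SFTPB first intron, and 3 from cells given a non-targeted sgRNA (sgRNA control). Both groups shared the same background. A549 cells had received lentiviral dCas9-KRAB, selected with puromycin at 10 ug/ml, and lentiviral rat Nkx2-1 from a PGK vector, selected by sorting for GFP. The sgRNAs were synthetic and transfected transiently. Cells without dCas9-KRAB and untransfected cells were not analysed here, so the data compare 2 guides in cells that all hold the repressor. Whether the stable line was a pool or 1 clone is not given in the sources used here.

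dCas9-KRAB is a Cas9 without nuclease activity that a guide RNA leads to a chosen DNA site, fused to the KRAB domain of zinc-finger repressors. The domain itself has no enzyme activity. It binds TRIM28 (KAP1), a scaffold that brings the histone methyltransferase SETDB1 and the NuRD deacetylase complex to the site. SETDB1 places methyl groups on lysine 9 of histone H3, HP1 proteins bind that mark, and the chromatin becomes compact. Repression by dCas9-KRAB thus rests on genes of the host cell, many of them used by the large family of human KRAB zinc-finger proteins to silence transposable elements.

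The target of sgRNA #2 is shown first, because any gene near a like site could be repressed by the same fusion. It matched chromosome 2 exactly at 1 place, chr2:85668529-85668551 of GRCh38, minus strand. The 10 bases next to the PAM and the PAM itself are in capitals.
sgRNA #2: gggatgggagGGGAACACCCAGG
None of the 10 cofactors held GGGAACACCCNGG on either strand within its annotated span or 1000 bp to each side. SFTPB held 1, and 0.718% of all 20046 protein-coding genes held at least 1. RefSeq promoters of 300 bases, from 250 before to 50 after a start site, were matched for 8 of the 10 genes (16 windows on GRCh38.p14). No window was available for TRIM28 and ATRX, so their promoters were not read. For each gene the NGG site with the longest unbroken match next to the PAM was read. The longest run among the cofactors was 4 bases, in EHMT2, and 21.4% of all 35116 promoters held a run of at least that length. The sites of EHMT2, of CBX1 (the fewest mismatches to the guide among the sites so chosen) and of MORC2 are given, with the matched run and the PAM in capitals.
EHMT2: ctccctcgcccacgtgACCCGGG
CBX1: cgcctgggggagtggcgCCCAGG
MORC2: tccgatagtgcacacagCCCCGG
These sites lie at chr6:31897716-31897738 (minus strand), chr17:48101332-48101354 (plus strand) and chr22:30968998-30969020 (plus strand). They differ from the guide at 15, 9 and 14 of its 20 bases. The full seed with NGG occurred in 0.00854% of all promoters and in none of the 16 windows of the cofactors. These matches describe letters only and say nothing of binding.

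The libraries held 6047554 to 7584611 reads on genes. SFTPB, the targeted gene, had 2683, 2877 and 3155 counts with the sgRNA control and 40, 42 and 49 with sgRNA #2, the direction that the labels name. Of 6 epithelial markers 5 were detected in all libraries, and KRT19 had 0 to 4 counts. Their summed level, mostly from KRT8, KRT7 and KRT18, was 3595 to 4544 CPM (read counts scaled to a common library size) with the sgRNA control and 3360 to 4202 with sgRNA #2. Of 9 markers of immune, endothelial and fibroblast cells, 7 had at most 3 counts in every library, and PTPRC, CD3E, COL1A2 and DCN were among those with 0. The other two were the fibroblast gene COL1A1, with 36 to 58 counts, and LYZ, with 1 to 12. Among the epithelial markers CDH1, which encodes E-cadherin, was lower with sgRNA #2 (238 ± 16 and 188 ± 5.08 CPM, SD, n = 3 each, edgeR adjusted p = 0.00728), and the log2 fold changes of all 5 epithelial markers tested were below 0. KRT8 passed as lower only with the replicate number as a block in the fit (edgeR adjusted p = 0.0235, and 0.684 without the block). The part of these markers in the values below was not tested. Values are means over all cells of a culture, so fewer cells that express a gene and less RNA per cell cannot be told apart. Together the 10 cofactors took 0.174 to 0.182% of the reads with the sgRNA control and 0.181 to 0.184% with sgRNA #2. These ranges overlapped narrowly, and the share was higher with sgRNA #2 in each of the 3 pairs of same-numbered libraries. How many of all tested genes went the same way in all 3 pairs was not counted. No result is therefore read from such pairs, here or for single cofactors below.

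Of the 10 cofactors, 0 passed the study's cut-offs for a changed gene (a log2 fold change of at least 1 in size and an adjusted p under 0.05), where 0.719% of all 13356 tested genes did. On the adjusted p alone, 0 of the 10 passed in edgeR (its quasi-likelihood test, Benjamini-Hochberg adjustment) and 0 in DESeq2, beside 2.69% of all tested genes in edgeR. At an unadjusted p under 0.05, 1 cofactor (CBX1) passed, against 11.1% of all tested genes. All 10 had enough reads to be tested, with 211 counts (MORC2) to 3615 counts (CBX5) in a library. Their log2 fold changes (sgRNA #2 over sgRNA control) lay between -0.19 and 0.19, with a median of 0.04, beside 0.00348 over all tested genes. The 95% intervals ran from -0.35 at the lowest (CBX1) to 0.38 at the highest (MORC2), which leaves room for a level between 0.787-fold and 1.30-fold of that in the control cells. A 2-fold change of any of the 10 lay outside its interval. In 2 of the 10 the groups did not overlap in any library, beside 15.6% of all tested genes. These were CBX1, which was lower (as were 8.83% of all tested genes), and MORC2, which was higher (as were 6.77%). Fitted with the replicate number as a block, 0 of the 10 passed both cut-offs, beside 0.913% of all tested genes, and 1 (CBX1) passed on the adjusted p, beside 10.0% of all tested genes in either direction and 6.06% that were lower.

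**Figure D1:**
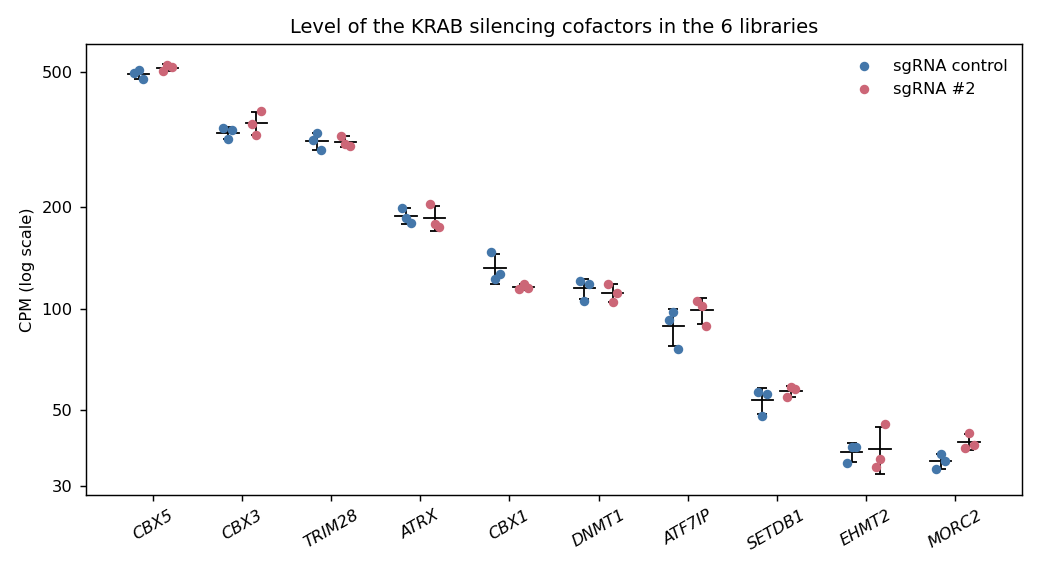
Level of each of the 10 cofactors in CPM (log axis) in the 3 sgRNA control libraries (blue) and the 3 sgRNA #2 libraries (red), with the mean and SD of each group in black. The groups overlap in 8 genes. CBX1 lies lower in all 3 sgRNA #2 libraries and MORC2 higher, by small distances.

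TRIM28 is the scaffold that the KRAB domain binds, and it lies on chromosome 19 of GRCh38 from 58544064 to 58550722. Its level was 315, 330 and 293 CPM in the sgRNA control libraries and 324, 307 and 302 CPM in the sgRNA #2 libraries. The groups overlapped fully, with means of 313 ± 18.4 and 311 ± 11.6 CPM (SD, n = 3 each). The log2 fold change was -0.01 with a standard error of 0.0655 (edgeR adjusted p = 0.989). Its 95% interval, -0.14 to 0.13, was among the narrowest of the 10. A change of TRIM28 by more than about 10% in either direction lay outside that interval (-9.54 to 9.55%).

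SETDB1, the methyltransferase that TRIM28 recruits, had 56.9, 48.2 and 55.7 CPM with the sgRNA control and 54.6, 58.6 and 58.0 CPM with sgRNA #2. The control library of replicate 2 was the lowest of the 6, and the groups overlapped. Its log2 fold change was 0.09 (95% interval -0.09 to 0.27, edgeR adjusted p = 0.793). ATF7IP binds SETDB1, keeps it in the nucleus and protects it from degradation. It had 92.4, 97.5 and 76.1 CPM in the control libraries and 106, 102 and 88.6 CPM in the sgRNA #2 libraries. The third replicate was the lowest in both groups, and the groups overlapped, though sgRNA #2 was higher in each of the 3 same-numbered pairs. The log2 fold change of ATF7IP was 0.16 (95% interval -0.03 to 0.35, edgeR adjusted p = 0.569). With the replicate block its edgeR adjusted p was 0.0596, which did not pass either. SETDB1 overlaps CERS2 on the other strand, which had 1672 to 2171 counts, and the strand setting of the counting is not given in the sources used here.

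The HP1 proteins bind histone H3 that is methylated at lysine 9, and TRIM28 binds them directly. They are encoded by CBX5 (HP1 alpha), CBX1 (HP1 beta) and CBX3 (HP1 gamma). CBX1 had 147, 122 and 126 CPM with the sgRNA control and 114, 118 and 115 CPM with sgRNA #2. All 3 sgRNA #2 libraries lay below the lowest control library, by 4.0 CPM at the nearest, and control replicate 1 stood highest. The log2 fold change was -0.19 (standard error 0.0750, 95% interval -0.35 to -0.03), a 12.2% lower level, and did not pass (adjusted p = 0.305 in edgeR and 0.610 in DESeq2). In the fit with the block, the log2 fold change of CBX1 was again -0.19 and passed on the edgeR adjusted p (0.00666). Without control replicate 1 the log2 fold change of CBX1 was -0.10. CBX3 had 341, 316 and 336 CPM in the control libraries and 351, 326 and 383 CPM in the sgRNA #2 libraries, which gave a log2 fold change of 0.09 (edgeR adjusted p = 0.708). Replicates 1 and 3 of sgRNA #2 lay above all control libraries and replicate 2 within their range, so the groups overlapped. CBX5 had 495, 506 and 475 CPM with the sgRNA control and 502, 525 and 516 CPM with sgRNA #2, which gave a log2 fold change of 0.06 (edgeR adjusted p = 0.794). It had the smallest spread of the 10, with a coefficient of variation within groups of 2.72%, beside a median of 6.58% over the 10 and 8.72% over all tested genes. CBX3 and CBX5 were both higher with sgRNA #2 in each of the 3 same-numbered pairs, and neither passed with the replicate block (edgeR adjusted p = 0.185 and 0.417). Gene symbols of HP1 pseudogenes are many in GENCODE release 44, with 5 for CBX1, 10 for CBX3 and 1 for CBX5. Of these, 1 (for CBX3) was counted in the files, at 39 reads over the 6 libraries against 13865 for CBX3, so reads shared with the other copies may be missing from the HP1 counts.

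ATRX is a chromatin remodeller that, with DAXX, places histone H3.3 at silenced repeats. It had 199, 185 and 179 CPM with the sgRNA control and 203, 178 and 174 CPM with sgRNA #2. The libraries of replicate 1 were the highest in both groups, and the log2 fold change was -0.01 (95% interval -0.17 to 0.14, edgeR adjusted p = 0.969). MORC2 is an ATPase that compacts chromatin together with the HUSH complex, which also works with SETDB1. It had 33.6, 37.3 and 35.5 CPM in the control libraries and 38.7, 43.0 and 39.5 CPM in the sgRNA #2 libraries. The groups did not overlap, and their nearest libraries were 1.4 CPM apart. The log2 fold change of MORC2 was 0.19 (standard error 0.0926, 95% interval -0.01 to 0.38), a 13.8% higher level, and did not pass (adjusted p = 0.486 in edgeR, 0.150 in edgeR with the replicate block and 0.951 in DESeq2). MORC2 overlaps the antisense gene MORC2-AS1, which had 27 to 55 counts against 211 to 286 for MORC2.

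DNMT1 copies DNA methylation onto the new strand after replication. It had 120, 106 and 118 CPM with the sgRNA control and 118, 104 and 111 CPM with sgRNA #2, with replicate 2 the lowest in both groups. Its log2 fold change was -0.04 (95% interval -0.20 to 0.11, edgeR adjusted p = 0.901). EHMT2 (G9a) places 1 or 2 methyl groups on lysine 9 of histone H3. It had 34.9, 39.1 and 39.0 CPM in the control libraries and 34.1, 35.9 and 45.6 CPM in the sgRNA #2 libraries. Replicate 3 of sgRNA #2 stood above all others and the other libraries of that group lay within or below the control range. EHMT2 had the widest spread of the 10 (12.3% within groups) and the widest interval, -0.21 to 0.26 around a log2 fold change of 0.03 (edgeR adjusted p = 0.965).

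**Figure D2:**
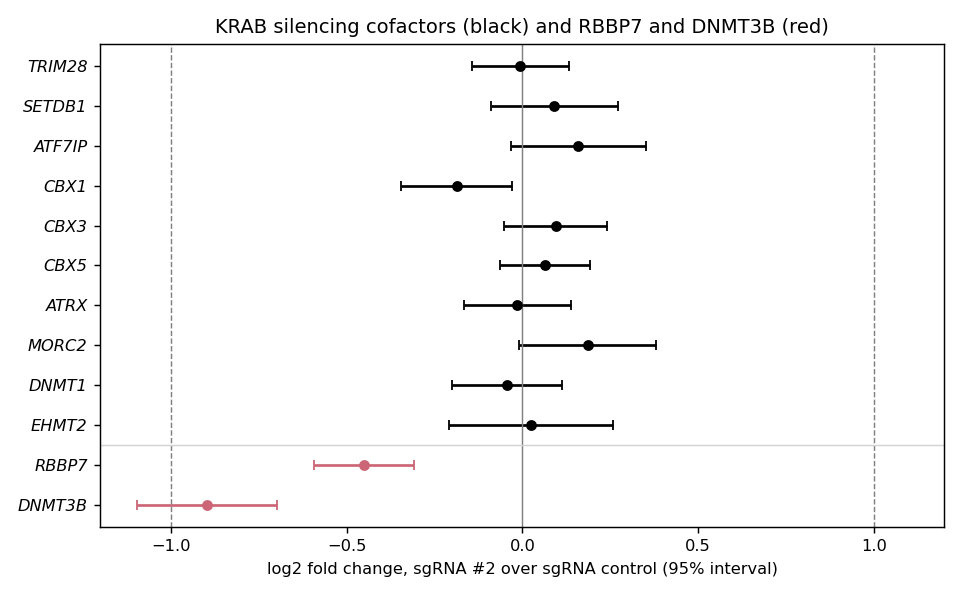
Log2 fold change of each cofactor (sgRNA #2 over sgRNA control, black) with its 95% interval, and of RBBP7 and DNMT3B (red), from the edgeR fit of 3 libraries against 3. Dashed lines mark a 2-fold change. All 10 cofactors lie between -0.19 and 0.19, RBBP7 at -0.45 and DNMT3B at -0.90.

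Levels of different genes were compared per kilobase, with CPM divided by the length of all annotated exons of a gene. Over the 6 libraries TRIM28 stood at 72.4 ± 3.20 CPM per kilobase and CBX3 at 70.7 ± 4.82 (SD, n = 6 each), and their ranges overlapped. CBX1 followed at 40.7 ± 4.05 and CBX5 at 33.5 ± 1.15, each apart from its neighbours. ATRX (8.19 ± 0.521), SETDB1 (7.50 ± 0.513), DNMT1 (7.34 ± 0.447) and ATF7IP (7.13 ± 0.805) formed a run in which each overlapped the next. EHMT2 at 5.22 ± 0.580 overlapped ATF7IP, and MORC2 was the lowest at 3.51 ± 0.302, below the range of EHMT2. Per kilobase of all exons, TRIM28 and the 3 HP1 genes thus had several times the mRNA level of the other cofactors. Of the methyltransferases for lysine 9, only SETDB1 and EHMT2 were ranked here. With the length of the longest transcript instead, the order of TRIM28 and CBX3 and that of SETDB1 and DNMT1 changed places, and CBX3 stood apart at 161 ± 11 CPM per kilobase above TRIM28 at 92.7 ± 4.10. With that length CBX5 stood at 43.6 and ATRX at 16.7 CPM per kilobase, closer in ratio than over all exons. In CPM, not divided by length, ATRX stood above CBX1. Their means were 187 and 132 CPM with the sgRNA control and 185 and 116 CPM with sgRNA #2. The annotation may not be that used for the counts.

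Shares within gene families describe which relative dominates, per kilobase. TRIM28 held 81.0, 83.7 and 80.7% of the TIF1 family (TRIM24, TRIM28, TRIM33 and TRIM66) with the sgRNA control and 81.8, 82.6 and 81.1% with sgRNA #2. These shares overlapped, and TRIM24 and TRIM33 held 7.08 to 9.31% each. TRIM66, the smallest, held 1.68 ± 0.164% with the sgRNA control and 2.18 ± 0.308% with sgRNA #2 (SD, n = 3 each), higher in all 3 sgRNA #2 libraries than in any control library (two-sided exact permutation p = 0.10, adjusted p = 0.38 over the shares). Of the HP1 family, CBX3 held 47.4 ± 1.19% with the sgRNA control and 50.2 ± 2.3% with sgRNA #2, CBX1 29.9 ± 1.67 and 26.2 ± 1.25%, and CBX5 22.7 ± 1.33 and 23.6 ± 1.06% (SD, n = 3 each). The CBX1 share was lower in all 3 sgRNA #2 libraries than in any control library (p = 0.10 in a two-sided exact permutation test, the smallest that 3 libraries against 3 allow, and 0.38 after adjustment over the 19 shares tested). On raw counts, not divided by length, CBX5 and not CBX3 was the largest HP1 gene, with 51.5 and 52.3%. SETDB1 held 14.8 ± 1.08 and 15.4 ± 0.971% of 6 methyltransferase genes for lysine 9, and EHMT2 10.5 ± 0.802 and 10.5 ± 1.22%, with SUV39H1 the largest at 45.2 ± 1.02 and 43.8 ± 3.67% (SD, n = 3 each). On raw counts EHMT1 was the largest in the control libraries, with 26.9% beside 25.4% for SUV39H1. Of MORC2, MORC3 and MORC4, MORC2 held 4.47 ± 0.367 and 4.90 ± 0.219%, and MORC4 88.7 ± 0.284 and 87.9 ± 0.572% (SD, n = 3 each). The MORC4 share was lower in all 3 sgRNA #2 libraries than in any control library, by small distances (two-sided exact permutation p = 0.10, adjusted p = 0.38 over the shares). Of all 19 shares tested, those of the DNA methyltransferases included, 5 did not overlap between the groups. In CPM, 15.6% of all tested genes did not overlap, and no such rate was computed for shares.

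The widest difference was among the DNA methyltransferases. DNMT1 held 49.1, 45.4 and 49.4% of the summed level of DNMT1, DNMT3A and DNMT3B with the sgRNA control and 60.8, 57.5 and 59.3% with sgRNA #2. DNMT3B held 42.4, 43.7 and 41.5% and then 29.7, 29.6 and 27.6%. Neither share overlapped between the groups (p = 0.10 for each in that two-sided exact permutation test, the smallest possible, and 0.38 after adjustment over the 19 shares). On raw counts, not divided by length, the mean shares were 63.5 and 71.5% for DNMT1 and 25.2 and 15.7% for DNMT3B. The shares of a family add up to the whole, so a lower DNMT3B share raises the others, and these 2 shares are not separate results. The DNMT1 level itself did not pass any test, as given above, while that of DNMT3B did.

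**Figure D3:**
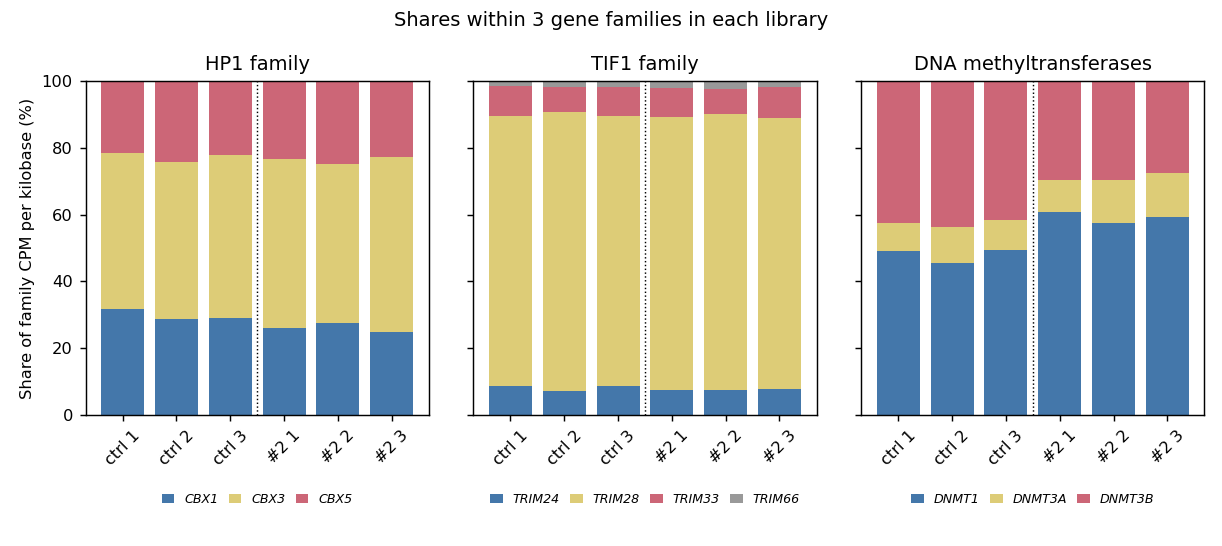
Share of the family's summed CPM per kilobase (%) taken by each gene in the 3 sgRNA control (ctrl) and 3 sgRNA #2 libraries. TRIM28 stays at 80.7 to 83.7% of the TIF1 family, while DNMT3B takes 41.5 to 43.7% of its family with the sgRNA control and 27.6 to 29.7% with sgRNA #2.

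DNMT3B places new methyl groups on unmethylated DNA, and it was the pathway gene with the smallest p-value outside the 10 cofactors. It had 46.5, 45.3 and 44.3 CPM in the control libraries (292, 320 and 337 counts) and 25.7, 24.0 and 23.2 CPM in the sgRNA #2 libraries (181, 160 and 139 counts). The groups were widely apart. The log2 fold change was -0.90 (95% interval -1.10 to -0.70, edgeR adjusted p = 1.00e-05), a 46.3% lower level, and held rank 43 of all tested genes by p-value. Since it was smaller than 1 in size, DNMT3B did not meet the study's cut-offs. It passed on the adjusted p in each of the 12 alternatives, between -0.94 and -0.86 on the log2 scale. RBBP7, a histone-binding subunit of NuRD and of other complexes, had 186, 182 and 195 CPM with the sgRNA control and 130, 135 and 147 CPM with sgRNA #2. All 3 sgRNA #2 libraries lay below the control libraries, and the log2 fold change of -0.45 had a standard error of 0.0673 (edgeR adjusted p = 5.17e-04). RBBP7 passed on the adjusted p in each of the 12 alternatives as well, between -0.50 and -0.41, and it overlaps TXLNG on the other strand. Neither gene held the 10-base seed of sgRNA #2 with NGG in its span or within 1000 bp. The closest NGG sites in the promoter windows available for them matched 3 bases next to the PAM, which was also the median over all 35116 promoters. The 1 window of DNMT3B lay inside the gene, whose annotated start is at 32762385 on chromosome 20. The promoter at that start was therefore not read. The sites are shown because these 2 genes were lower.
DNMT3B: gccagcagaccaatgggCCCTGG
RBBP7: agggctcgcccggcgctCCCAGG
They lie at chr20:32779730-32779752 and chrX:16870514-16870536 of GRCh38.p14, both on the plus strand. They differ from the guide at 13 and 11 of its 20 bases, and these matches too describe letters only.

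The other genes, called pathway genes here, were taken from lists of 172 symbols beside the 10 cofactors. The lists also held genes outside KRAB silencing, namely Polycomb PRC2 and 4 genes that neighbour cofactors. Of the 172, 151 could be tested, and 2 passed on the adjusted p, both lower (DNMT3B and RBBP7). That is 1.32% of the 151, beside 2.69% of all tested genes. None met both cut-offs. At an unadjusted p under 0.05 there were 10, or 6.62%, beside 11.1% of all tested genes. The median log2 fold change of the 151 was 0.02. With the replicate block 8 passed (5.30% of the 151, beside 10.0% of all tested genes), 5 higher and 3 lower. The 6 that passed in this fit and not in the same fit without the block were HDAC1 (-0.22 on the log2 scale, edgeR adjusted p = 0.0184), TRIM66 (0.37, adjusted p = 0.00269), TET3 (0.17, adjusted p = 0.0362), ZNF431 (0.44, adjusted p = 0.0380), ZNF195 (0.19, adjusted p = 0.0456) and UBA2 (0.15, adjusted p = 0.0456). In that fit without the block their adjusted p lay between 0.154 and 0.491 in edgeR. TRIM66 also passed without the block when no count filter was used (edgeR adjusted p = 0.0455) and when sgRNA #2 replicate 3 was left out (0.0408).

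The single lists are short, and their counts stand beside the 2.69% of all tested genes that passed. In NuRD, the deacetylase and remodelling complex, 1 of 13 tested genes passed, RBBP7 (with the block HDAC1 as well), and the list's median was 0.00 on the log2 scale (0.00449). Its ATPases CHD4 and CHD3 stood at 171 ± 0.993 and 238 ± 9.82 CPM with the sgRNA control and at 169 ± 1.83 and 239 ± 7.95 CPM with sgRNA #2 (SD, n = 3 each). In the DNA methylation list 1 of 7 passed, DNMT3B (with the block TET3 as well). DNMT3A, the other enzyme for new methylation, stood at 20.3 ± 2.10 and 19.8 ± 2.96 CPM, and UHRF1, which guides DNMT1 to replicated DNA, at 47.2 ± 6.61 and 46.4 ± 8.49 CPM (SD, n = 3 each). Of the HUSH and periphilin list, which also held the MORC2 relatives MORC3 and MORC4, 0 of 6 tested genes passed. MPHOSPH8, the HUSH subunit that binds methylated lysine 9, stood at 54.3 ± 1.40 and 54.3 ± 3.96 CPM (SD, n = 3 each). FAM208A and FAM208B, older symbols of TASOR and TASOR2, stood at 128 ± 4.13 and 221 ± 27.3 CPM in the control libraries and at 138 ± 16.7 and 236 ± 13.1 CPM with sgRNA #2.

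Counts of 0 passing genes were also found among 6 lysine 9 methyltransferases and 8 genes listed as demethylases of the same residue. The same held for 3 partners of EHMT2 or SETDB1 complexes, 5 genes of histone H3.3 and its chaperones (DAXX among them) and 16 SUMO pathway genes. It also held for 8 further partners of HP1 or TRIM28 and 5 genes of Polycomb PRC2, a different repressive system. These counts are from the edgeR fit without the block, in which 2.69% of all tested genes passed. The SUMO pathway attaches the small protein SUMO to TRIM28, which its binding of SETDB1 and NuRD requires. Of its 16 genes 14 had a log2 fold change above 0, with a median of 0.05, where 6822 of all 13356 tested genes were above 0. At an unadjusted p under 0.05 the SUMO list had 0 genes, beside 11.1% of all tested genes. SAE1, a subunit of the enzyme that activates SUMO, stood at 177 ± 6.74 CPM with the sgRNA control and 188 ± 11.1 CPM with sgRNA #2 (SD, n = 3 each), and its libraries overlapped between the groups.

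Of the most counted genes of these lists, none passed without the block (edgeR). Levels are given as means ± SD of 3 libraries. Of the demethylases, KDM3B stood at 181 ± 3.22 CPM with the sgRNA control and 176 ± 8.69 CPM with sgRNA #2, KDM3A at 107 ± 4.34 and 104 ± 5.32 CPM and KDM1A (LSD1) at 79.4 ± 1.37 and 73.1 ± 6.25 CPM. KDM3B and KDM3A remove methyl groups from lysine 9, and the groups of all 3 genes overlapped. EHMT1 (GLP), the usual partner of EHMT2, had 76.0 ± 6.41 and 69.7 ± 3.03 CPM. The zinc-finger proteins WIZ and ZNF644 join that pair, with 66.9 ± 5.19 and 59.4 ± 6.71 CPM for WIZ and 68.8 ± 1.69 and 75.9 ± 4.31 CPM for ZNF644. The ZNF644 libraries did not overlap, nor did those of the little-expressed ATF7IP2, a relative of ATF7IP (7.64 ± 1.01 and 10.3 ± 1.62 CPM). Both were higher with sgRNA #2, as were 6.77% of all tested genes without overlap. H3F3B, a gene for histone H3.3, had 306 ± 14.9 and 312 ± 5.11 CPM, and the histone chaperone subunits UBN1 and CABIN1 had 127 ± 1.46 and 125 ± 1.74 and then 68.3 ± 4.92 and 67.1 ± 2.88 CPM. H3F3A, another gene for H3.3, had 0 counts in all 6 libraries and could not be compared. The cause of these missing counts was not tested. Among the partners of HP1 or TRIM28, ADNP had 255 ± 15.1 and 265 ± 17.3 CPM. The lamin B receptor LBR, which ties HP1 to the nuclear envelope, had 242 ± 24.8 and 253 ± 24.5 CPM, and LMNB1, a lamin, 159 ± 14.1 and 152 ± 11.8 CPM. Of Polycomb PRC2, SUZ12 stood at 139 ± 12.7 and 145 ± 11.9 CPM, and the methyltransferases EZH2 and EZH1 at 36.8 ± 4.12 and 37.1 ± 1.6 and at 35.3 ± 1.2 and 40.1 ± 4.03 CPM.

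**Figure D4:**
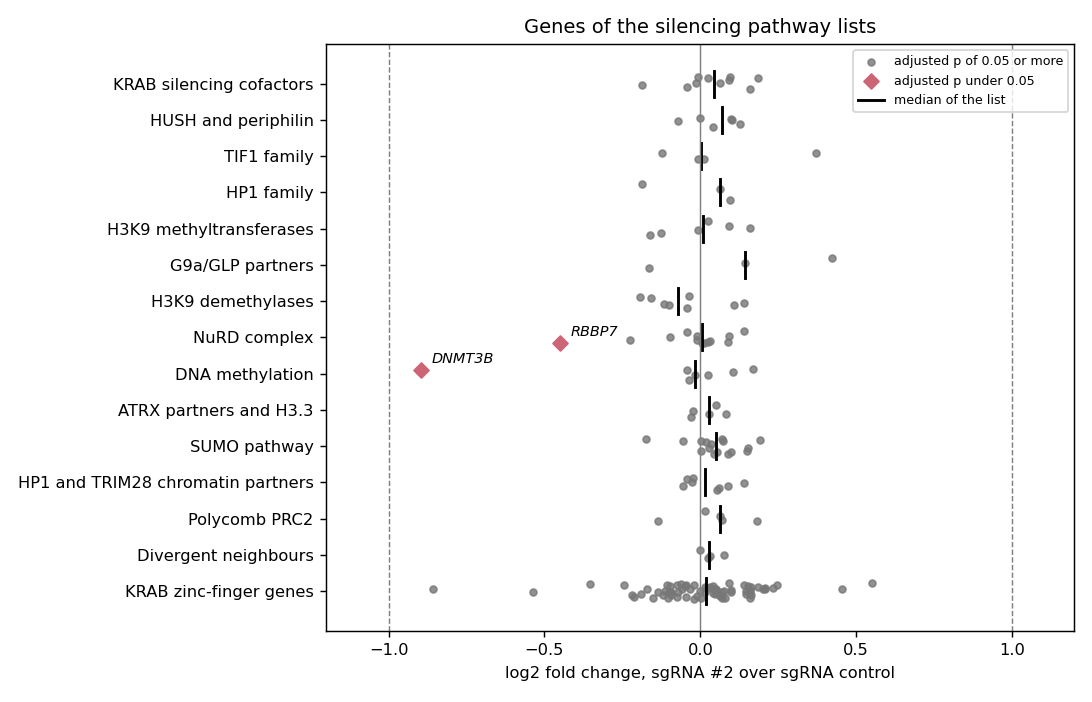
Log2 fold change of every tested gene in the 10 cofactors and in 14 further lists (points), with the median of each list as a black bar and dashed lines at a 2-fold change. Polycomb PRC2 and genes that neighbour cofactors are among these lists. Red diamonds mark genes with an adjusted p under 0.05 in the edgeR fit without the replicate block, which are RBBP7 and DNMT3B.

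The KRAB zinc-finger genes encode the natural partners of TRIM28. Of 87 named, 70 could be tested and 0 passed on the adjusted p in edgeR or DESeq2, beside 2.69% of all tested genes in edgeR. At an unadjusted p under 0.05 there were 4, beside 11.1% of all tested genes, and 2 passed with the replicate block, beside 10.0%. Their log2 fold changes had a median of 0.02 and ran from -0.86 to 0.55. The most counted were ZNF337 (75.4 ± 3.73 and 83.3 ± 4.85 CPM), ZNF317 (62.1 ± 1.81 and 69.4 ± 2.53 CPM) and ZNF445 (65.6 ± 2.81 and 59.1 ± 6.52 CPM), of which only ZNF317 did not overlap between the groups (as 15.6% of all tested genes did not). ZNF10, whose KRAB domain is widely used in dCas9 fusions, had 105, 135 and 158 counts with the sgRNA control and 140, 139 and 109 with sgRNA #2. That is 18.9 ± 2.04 and 19.6 ± 1.38 CPM (SD, n = 3 each), with overlapping libraries. The source of the KRAB domain in this fusion is not given in the sources used here, and reads of a transgene cannot be told from those of the gene.

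Some of the cofactors share a start region with a neighbour on the other strand. The start of CBX3 overlaps that of HNRNPA2B1, the start of CBX5 lies 60 bp from that of HNRNPA1, that of EHMT2 87 bp from that of C2, and that of MORC2 471 bp from that of TUG1. HNRNPA2B1 and HNRNPA1 encode RNA-binding proteins and had 6084 to 7328 and 1069 to 1298 counts. Neither passed, with 943 ± 72.8 and 959 ± 58.5 CPM for HNRNPA2B1 and 168 ± 14.9 and 176 ± 12.3 CPM for HNRNPA1 (SD, n = 3 each). The promoter windows of CBX1, MORC2, DNMT1, EHMT2 and CBX3 held 38, 35, 30, 25 and 19 CpG dinucleotides, all above the median of 14 over all promoters. SETDB1 held 15 and 22 in its 2 windows, and the windows of ATF7IP and CBX5 ranged from 0 to 24 and from 4 to 25.

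The genes whose pattern over the 6 libraries was most like that of TRIM28 were sought among 1354 genes of like level (mean log2 CPM within 1). Likeness was the root-mean-square difference of log2 CPM after centring each gene on its own mean. SAMD4B came first with 0.0208, followed by OAS3 (0.0236), COTL1 (0.0281), ATN1 (0.0287) and DSG2 (0.0289), where the median over the 1354 was 0.0962. None of these 5 is a chromatin gene of the lists, and all had log2 fold changes between -0.04 and 0.02. With only 6 libraries this order is a description.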

How the data were processed

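RNA-seq of 6 libraries was analysed, 3 per group, with groups and replicate numbers from the sample labels. Files of raw counts, 1 for each gene symbol and made with htseq-count, were deposited. The submitters' processing notes name hg38, Trim Galore, FastQC, Bowtie2 2.3.3.1, SAMtools, Picard and HTSeq. Neither the gene annotation nor the strand setting is given in the sources used here. Reads outside genes (19.7 to 21.1%) and ambiguous reads (2.61 to 2.75%) were left out. The study describes the triplicates as biologically independent, and within a group the libraries differed beyond counting noise (chi-square over degrees of freedom 2.72 to 3.61). P-values rest on the spread between these libraries.

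The quasi-likelihood test of edgeR 4.0.16 (R 4.3.3) with TMM scaling was applied to 13356 genes that reached 10 counts in 3 or more libraries, and p-values were adjusted by Benjamini-Hochberg over all of them. CPM used TMM library sizes. The standard error is the log2 fold change divided by the square root of F. The 95% intervals use the total degrees of freedom of the fit. These add to the residual ones the prior degrees of freedom, which are drawn from all tested genes. On simulated counts of these 13356 genes, 199 of 200 changed genes were recovered with 2 false calls. Every planted change was at least 1 in size on the log2 scale. All genes had the same dispersion and no replicate effect was simulated. The recovery of changes as small as those of the cofactors was not tested. Same-numbered libraries deviated together (correlations 0.281 to 0.301 across genes, in all 3 pairs), so blocked values are given where they change a call. That fit had an infinite prior degrees of freedom, against 13.0 without the block, so its p-values rest on the trended dispersion. Alternatives were DESeq2 1.42.0, RLE, library totals, other count filters, the block and leaving out each library. Gene models are GENCODE release 44, promoters RefSeq. The guide came from the study's supplementary file. Permutation tests used scipy 1.17.1.

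The cofactors and lists were chosen with earlier results of these data known. Genes named are the 10 cofactors, SFTPB, called genes and up to 3 most counted genes of each list, relatives in a family share, and the 5 genes most like TRIM28. MPHOSPH8, ZNF10, H3F3A and the genes that the block added to the calls were added for their role, missing counts or call.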

Additional observations from a re-analysis of the deposited data

How the results depend on the processing

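The count of 0 cofactors past both cut-offs held in all 12 alternatives. On the adjusted p alone, 0 passed in 11 of them, where the lowest adjusted p of any cofactor was 0.194 (edgeR or DESeq2), and 1 (CBX1) passed with the replicate block. The block also raised the pathway genes that passed from 2 to 8, and all tested genes from 359 to 1339. There were 3 pathway genes with no count filter and without sgRNA #2 replicate 3, with TRIM66 gained in both. The block changed no other call of a cofactor. All genes that passed on the adjusted p were 583 with no count filter, and from 224 to 327 in the fits that each left out 1 library, lowest without sgRNA #2 replicate 1 (224) and sgRNA control replicate 2 (233). Requiring 10 counts in every library gave 63 genes past both cut-offs in place of 96. The cofactors with fold changes near 0 changed sign when single libraries were left out. TRIM28 then lay between -0.0523 and 0.0349, ATRX between -0.0825 and 0.0277, DNMT1 between -0.0988 and 0.000733 and EHMT2 between -0.108 and 0.112 on the log2 scale, none of them past the threshold. Over the 11 alternatives without the block, the 10 log2 fold changes stayed between -0.24 and 0.24. The cause of these sign changes was not tested. Of 133 alternative values of the family shares, 128 moved by less than 1 SD. Among the 10, MORC2 and EHMT2 had the fewest counts and the largest standard errors. Intervals cover only the spread of 3 libraries per group, moderated by that of the other tested genes. Protein levels and the dCas9-KRAB transcript were not analysed here.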
